A study of Mus musculus with 5 samples.

Results

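The CCN family of matricellular proteins and the genes of YAP, its partners and its targets were followed in RNA precipitated with AUF1, a protein that binds AU-rich elements of mRNAs. The members were 10 named genes, of which 5 encode CCN proteins (Cyr61, Ctgf, Nov, Wisp1 and Wisp2, now named Ccn1 to Ccn5) and 5 belong to the YAP pathway or respond to it (Ankrd1, Amotl2, Yap1, Lats2 and Tead1). They were found through the annotation of the array, and every probe set annotated to one of them alone was used. This gave 23 of 45101 probe sets and 10 of the 18194 genes with a probe set of their own, and 1 further probe set shared by Lats2 and Xpo4 was not used.

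The RNA came from NIH/3T3 cells, a mouse embryonic fibroblast line, infected with a pair of retroviral vectors that express AUF1 p42 with an amino-terminal myc tag from the mifepristone-inducible GeneSwitch system. Arrays were hybridized with 2 ribonucleoprotein immunoprecipitates (RNP-IPs) on anti-myc beads labelled as induced with 1 nM mifepristone for 24 h, with 2 RNP-IPs labelled as uninduced, and with 1 sample of total RNA, which was not precipitated. By the labels all 5 samples come from cells with the vectors, which by the methods were selected after infection in the presence of mifepristone, and the induction state behind the total RNA is given neither in the labels nor in the methods. The 2 RNP-IPs labelled induced are described as independent, which is not stated of those labelled uninduced, and p-values measure the spread between these few arrays.

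CCN proteins are secreted into the extracellular matrix, where they do not form fibres but bind integrins, heparan sulphate proteoglycans and growth factors and so change how cells attach, migrate and respond. The Hippo pathway is a chain of kinases in which MST kinases activate LATS kinases, and LATS phosphorylates the coactivator YAP and thereby keeps it out of the nucleus. Unphosphorylated YAP enters the nucleus, binds the TEAD transcription factors on DNA and switches on genes such as Cyr61, Ctgf, Ankrd1, Amotl2 and Lats2, the last of which feeds back on YAP. In fibroblasts this circuit responds to cell density, matrix stiffness and serum. The mRNAs of Cyr61 and Ctgf are known as short-lived immediate early transcripts.

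The core of the TEAD binding site is CATTCC or, read on the opposite strand, GGAATG. It was searched on both strands of the RefSeq promoters of GRCm38.p6, which run from 250 bases before to 50 bases after each start site. Promoters were at hand for 5 of the 10 members, while Ctgf, Nov, Wisp1, Wisp2 and Tead1 had no entry. The 30 bases around each match are shown to set promoters of targets of YAP and of Yap1 itself side by side. The core is in capitals, and each window is read 5' to 3' along the strand of its gene.
Cyr61: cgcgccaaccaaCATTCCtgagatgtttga
Amotl2: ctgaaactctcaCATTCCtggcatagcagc
Ankrd1, upstream match: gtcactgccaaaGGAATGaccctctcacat
Ankrd1, downstream match: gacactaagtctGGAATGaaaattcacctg
Lats2: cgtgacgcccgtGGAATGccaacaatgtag
Yap1: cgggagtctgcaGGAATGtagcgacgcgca

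The windows lie at chr3:145650071-145650100 on the minus strand for Cyr61, with the core 103 to 98 bases before the start site, and at chr9:102717727-102717756 on the plus strand for Amotl2, with the core 65 to 60 bases before it. For Ankrd1 they lie at chr19:36120037-36120066 and chr19:36119950-36119979 on the minus strand, with the cores 210 to 205 and 123 to 118 bases before the start site. The Lats2 window is chr14:57746102-57746131 on the minus strand, with the core 4 to 9 bases after the start site, and a second promoter of Lats2 held no match. The Yap1 window is chr9:8004720-8004749 on the minus strand, with the core 141 to 136 bases before the start site. The core was present in a promoter of all 5 members with an entry (5 of 6 promoters), against 4817 of all 32851 promoters (14.7%), and 447 promoters (1.36%) held it at least 2 times, as Ankrd1 did. A match of these letters is a description and not a measured binding site.

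Before the members, the labels were checked with Hnrnpd, the gene of AUF1. Its probe set 1425142_a_at read 6.72 and 7.39 in the RNP-IPs labelled induced, against 11.35 and 11.85 with the uninduced label and 10.60 in total RNA. Probe set 1457568_at was lower with the induced label as well, at 3.71 and 3.61 against 8.4 and 8.52, with 7.03 in total RNA. So was 1458273_at, at 2.40 and 2.64 against 5.15 and 4.39, with 3.94 in total RNA. The precipitates measure RNA held on the beads and not AUF1 made in the cells. Whether these probe sets read the transcript of the vector was not examined. The check therefore cannot decide whether the labels hold. The groups are therefore named by their labels throughout, and every direction below rests on them. Of 14 fibroblast markers 12 had a mean log2 signal of at least 5, while 16 of 18 markers of other cell types stayed under 5 in all arrays. Median log2 signals of the arrays were 3.77 to 3.83, and in each array 13168 to 13649 probe sets reached log2 5, the level below which a signal is here called near background.

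The RNP-IPs labelled induced were set against the 2 labelled uninduced and the total RNA together, as 3 controls. This asks which mRNAs make up a larger or smaller share of the RNA with the induced label. By the methods, RNP-IPs of control cells had a 3-fold lower RNA concentration, while equal masses were labelled. A smaller share is therefore not a measure of less of an mRNA on the beads. The CCN genes split. Nov was 5.52-fold higher in the RNP-IPs labelled induced, while Ctgf was 5.92-fold lower and Cyr61 3.84-fold lower, and Wisp1 and Wisp2 averaged below the controls without being called. Of the YAP pathway genes 1 probe set of Lats2 was higher, and Yap1, Tead1, Ankrd1 and Amotl2 were not called. A probe set was called where its fold was at least 3 and its adjusted p under 0.5 (limma, Benjamini-Hochberg over all probe sets), the rule of the study, and this threshold admits a large share of false calls.

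By that rule 3 member probe sets of 2 genes were higher (Nov with 2 and Lats2 with 1), beside 1.16% of all probe sets, and 2 probe sets of 2 genes were lower (Ctgf and Cyr61), beside 1.66% of all. The other 18 were not called. At an adjusted p under 0.05 limma called none of the members and none of the 45101 probe sets, the smallest adjusted p over all being 0.0523, while 7 member probe sets and 4836 of all had an unadjusted p under 0.05. The RNP-IPs labelled induced lay above all 3 controls for 5 member probe sets of 2 genes (Nov and Lats2), beside 11.0% of all probe sets, and below all 3 controls for 6 probe sets of 4 genes (Cyr61, Ctgf, Wisp1 and Wisp2), beside 10.6% of all. The groups overlapped for the remaining 12. Among those without overlap, Lats2 1419678_at was under log2 5 in all arrays, and Cyr61 1442340_x_at and 1457823_at were under it in all precipitates. Of the 23 probe sets 6 were under log2 5 in all arrays and 14 had a mean of at least log2 5.

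**Figure D1:**
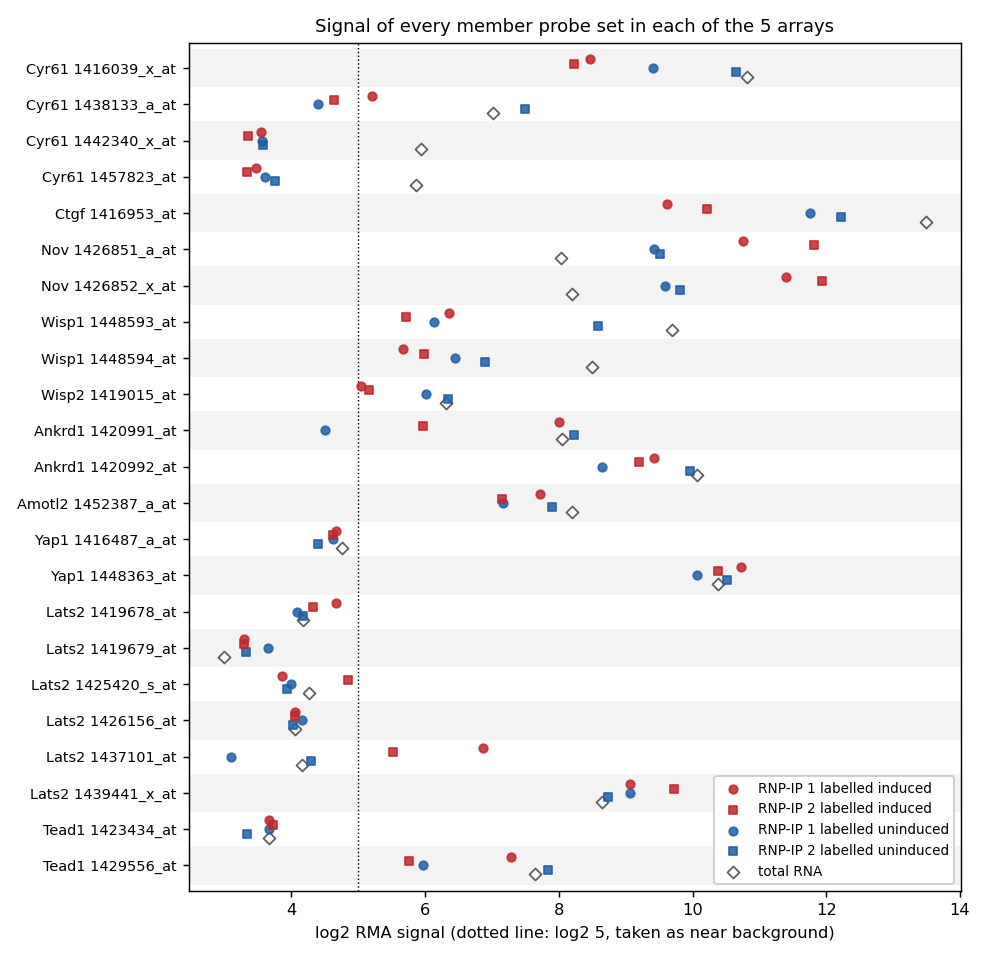
Log2 RMA signal (horizontal axis) of each of the 23 member probe sets (1 row each) in the 5 arrays, with 1 symbol per array, set slightly apart in height so that no array hides another, and a dotted line at log2 5. Both arrays labelled induced lie right of every control for Nov and left of every control for Ctgf, while the symbols of Yap1 1448363_at lie within 10.06 to 10.72.

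Nov (CCN3) is the family member known to restrain growth in many cells, and it is known to oppose Ctgf in fibrosis. Its probe set 1426852_x_at read 11.40 and 11.93 in the RNP-IPs labelled induced, against 9.59 and 9.81 with the uninduced label and 8.20 in total RNA. No array of one group reached into another, and the 2 precipitates labelled induced were the highest of the 5. The log2 fold was 2.47 (SE 0.59, adjusted p = 0.280, limma), with a 95% interval of 0.81 to 4.12. The other probe set, 1426851_a_at, read 10.76 and 11.82 in the RNP-IPs labelled induced, against 9.42 and 9.52 with the uninduced label and 8.03 in total RNA, a log2 fold of 2.30 (SE 0.64, adjusted p = 0.342). Both probe sets were designed from 1 transcript sequence and are not independent measurements. The call of Nov was lost without RNP-IP 2 labelled uninduced (adjusted p = 0.504), although the log2 fold was then 2.77. That of 1426851_a_at was lost as well without RNP-IP 2 labelled induced (adjusted p = 0.573) and without RNP-IP 1 labelled uninduced (adjusted p = 0.513).

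Ctgf (CCN2), the profibrotic family member induced by TGF-beta and by YAP, had the largest change downwards among the members called. Its single probe set, 1416953_at, read 9.62 and 10.22 in the RNP-IPs labelled induced, against 11.76 and 12.22 with the uninduced label and 13.49 in total RNA. The order of the groups was thus the reverse of that of Nov, with total RNA highest, and again no groups overlapped. The log2 fold was -2.57 (SE 0.61, adjusted p = 0.278), with a 95% interval of -4.27 to -0.86. The call was lost without RNP-IP 1 labelled induced (log2 fold -2.27, adjusted p = 0.557) and without RNP-IP 2 labelled uninduced (log2 fold -2.70, adjusted p = 0.572).

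Cyr61 (CCN1) promotes adhesion and the growth of vessels, and it carries the TEAD core shown above. Its brightest probe set, 1416039_x_at, read 8.47 and 8.23 in the RNP-IPs labelled induced, against 9.41 and 10.65 with the uninduced label and 10.82 in total RNA. Both arrays labelled induced were below every control, RNP-IP 1 labelled uninduced being the nearest to them, and the log2 fold was -1.94 (SE 0.51, adjusted p = 0.311), with a 95% interval of -3.36 to -0.53. This call was lost without either array labelled induced (adjusted p = 0.537 and 0.523) and without RNP-IP 2 labelled uninduced (adjusted p = 0.656). The suffix _x_at marks probes that may also hybridize with other transcripts, for Cyr61 as for Nov.

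The other probe sets of Cyr61 did not repeat the call. Probe set 1438133_a_at read 5.21 and 4.63 in the RNP-IPs labelled induced, against 4.40 and 7.49 with the uninduced label and 7.01 in total RNA, so that RNP-IP 1 labelled uninduced lay among the arrays labelled induced (log2 fold -1.38, SE 1.10, adjusted p = 0.707). It was called without RNP-IP 1 labelled uninduced (log2 fold -2.33, adjusted p = 0.322). The mean log2 fold over all probe sets of Cyr61, with no test, was -1.31 and so under a fold of 3. Probe sets 1442340_x_at and 1457823_at, both designed from 1 expressed sequence tag, were near background in all 4 precipitates, at 3.33 to 3.76, and above it in total RNA alone, at 5.94 and 5.86.

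Wisp1 (CCN4), a target of Wnt signalling, leaned the same way as Ctgf without a call. Its probe set 1448594_at read 5.67 and 5.98 in the RNP-IPs labelled induced, against 6.44 and 6.89 with the uninduced label and 8.50 in total RNA, with no overlap (log2 fold -1.45, SE 0.71, adjusted p = 0.637). Its brighter probe set, 1448593_at, read 6.36 and 5.71 in the RNP-IPs labelled induced, against 6.13 and 8.58 with the uninduced label and 9.69 in total RNA. Here RNP-IP 1 labelled uninduced fell between the arrays labelled induced, and the log2 fold of -2.10 (SE 1.20, adjusted p = 0.683) had a 95% interval of -5.45 to 1.26. Without RNP-IP 1 labelled uninduced it was called, 8.58-fold lower (log2 fold -3.10, adjusted p = 0.366).

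Wisp2 (CCN5), which lacks the cysteine-rich carboxyl-terminal domain of the other CCN proteins, gave the tightest values of the family. Probe set 1419015_at read 5.04 and 5.16 in the RNP-IPs labelled induced, against 6.02 and 6.35 with the uninduced label and 6.32 in total RNA. The difference was 2.19-fold and so under the fold of 3 that a call requires, although its adjusted p of 0.118 (log2 fold -1.13, SE 0.13) was lower than that of any other member probe set. The arrays labelled induced were only just above log2 5.

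**Figure D2:**
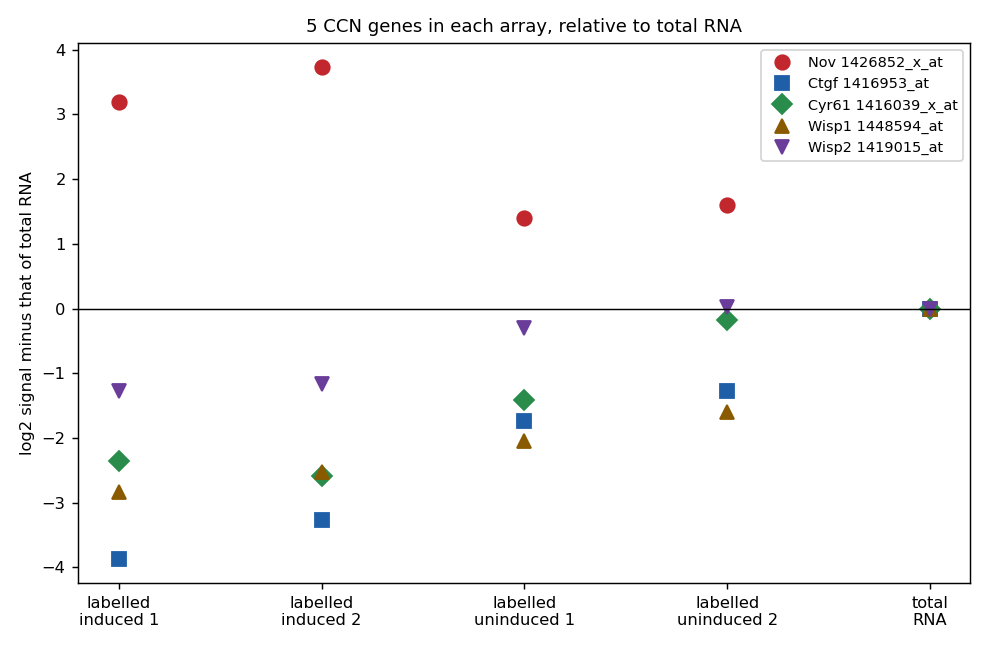
Log2 signal minus that of total RNA (vertical axis) in each of the 5 arrays (horizontal axis) for 1 probe set of each of the 5 CCN genes, the brightest of those with no overlap between the RNP-IPs labelled induced and the controls, with total RNA at 0. Nov lies above 0 and the other genes below it in both arrays labelled induced, and the 2 arrays labelled uninduced lie between these and total RNA for Nov, Ctgf, Cyr61 and Wisp1 1448594_at.

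Among the members outside the CCN family, Lats2, the kinase that phosphorylates YAP, was the one with a call, and its probe sets differed. Probe set 1437101_at read 6.86 and 5.52 in the RNP-IPs labelled induced, against 3.09 and 4.29 with the uninduced label and 4.16 in total RNA. All 3 controls were near background, so that with signals below log2 5 set to 5 the probe set was at least 2.29-fold higher, or at least 1.44-fold without RNP-IP 1 labelled induced (fitted log2 fold 2.35, SE 0.61, adjusted p = 0.309). The brightest probe set of Lats2, 1439441_x_at, read 9.07 and 9.72 in the RNP-IPs labelled induced, against 9.07 and 8.73 with the uninduced label and 8.65 in total RNA, where RNP-IP 1 labelled induced barely exceeded RNP-IP 1 labelled uninduced (log2 fold 0.58, SE 0.26, adjusted p = 0.598). The call at 1437101_at was lost without RNP-IP 1 labelled induced (adjusted p = 0.554) and without RNP-IP 2 labelled uninduced (adjusted p = 0.566), and the probe set has a mean under log2 5. The other 4 probe sets of Lats2 were under log2 5 in all arrays.

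Yap1, the coactivator itself, showed little difference between the groups. Its bright probe set, 1448363_at, read 10.72 and 10.38 in the RNP-IPs labelled induced, against 10.06 and 10.52 with the uninduced label and 10.38 in total RNA. The groups overlapped, and the 95% interval of the log2 fold, -0.31 to 0.76 around 0.23 (SE 0.19, adjusted p = 0.719), does not reach the fold of 3 of the calling rule in either direction. The other probe set of Yap1 stayed between 4.40 and 4.76.

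Tead1 encodes one of the TEAD factors that carry YAP to DNA. Probe set 1429556_at read 7.28 and 5.76 in the RNP-IPs labelled induced, against 5.97 and 7.84 with the uninduced label and 7.64 in total RNA, so that 1 array of each label was low and the other high (log2 fold -0.63, SE 0.83, adjusted p = 0.812). The other probe set of Tead1 was near background throughout. Without RNP-IP 2 labelled induced the log2 fold of Tead1 was 0.14, of the opposite sign.

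Ankrd1, a nuclear and sarcomeric ankyrin repeat protein, and Amotl2, an angiomotin that binds YAP at cell junctions, are classical targets of YAP, both with the TEAD core in their promoters shown above. Ankrd1 probe set 1420992_at read 9.42 and 9.20 in the RNP-IPs labelled induced, against 8.64 and 9.96 with the uninduced label and 10.07 in total RNA (log2 fold -0.25, SE 0.52, adjusted p = 0.883). Its second probe set, 1420991_at, ranged over more than its own fold, at 8.01 and 5.97 in the RNP-IPs labelled induced, against 4.50 and 8.22 with the uninduced label and 8.05 in total RNA (log2 fold 0.07, SE 1.51). Amotl2 read 7.72 and 7.14 in the RNP-IPs labelled induced, against 7.16 and 7.89 with the uninduced label and 8.20 in total RNA (log2 fold -0.32, SE 0.40, adjusted p = 0.799). The groups overlapped for both genes.

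**Figure D3:**
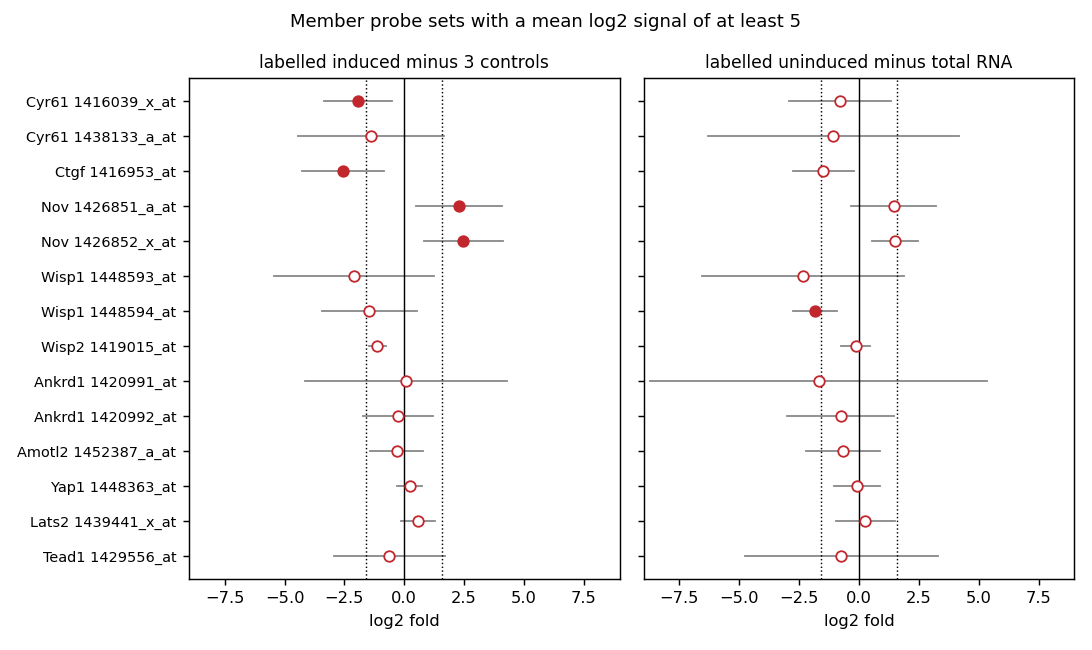
Log2 fold (horizontal axes, points) with 95% intervals (lines) of the 14 member probe sets with a mean log2 signal of at least 5, for the RNP-IPs labelled induced minus the 3 controls (left) and the RNP-IPs labelled uninduced minus total RNA (right), with filled points for probe sets that were called and dotted lines at a fold of 3. On the left Nov is called to the right of 0 and Ctgf and Cyr61 1416039_x_at to the left, and on the right the called probe set is Wisp1 1448594_at.

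Total RNA had not been through precipitation, so the RNP-IPs labelled induced were next compared with those labelled uninduced alone. The same probe sets of Nov, Lats2, Ctgf and Cyr61 were called. The 3 higher ones stand beside 1.23% of all probe sets and the 2 lower ones beside 1.91%. At an adjusted p under 0.05 limma called none of the members or of all probe sets. At an unadjusted p under 0.05 there were 6 member probe sets and 5202 of all. The arrays labelled induced are those of the first comparison, so this is not independent of it. The call of Nov 1426851_a_at was lost without RNP-IP 2 labelled induced or without either RNP-IP labelled uninduced, and that of Lats2 without RNP-IP 1 of either label. The call of Cyr61 1416039_x_at was lost without any one of the precipitates other than RNP-IP 1 labelled uninduced.

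Without total RNA the folds of Ctgf, Cyr61 and Nov were smaller. Ctgf was 4.19-fold lower in the RNP-IPs labelled induced than in those labelled uninduced (log2 fold -2.07, adjusted p = 0.225), and Cyr61 1416039_x_at was 3.20-fold lower (log2 fold -1.68, adjusted p = 0.445). Nov was 3.90-fold higher at 1426852_x_at (log2 fold 1.97, adjusted p = 0.185) and 3.53-fold higher at 1426851_a_at (log2 fold 1.82, adjusted p = 0.350). Lats2 1437101_at had a fitted log2 fold of 2.51 (adjusted p = 0.423). Wisp2 had a log2 fold of -1.08 (adjusted p = 0.207), close to its value against all 3 controls.

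What the beads held without labelled induction was read from the RNP-IPs labelled uninduced against total RNA, with the single total RNA array assumed to vary like the others. No member was higher, beside 0.891% of all probe sets, and 3 probe sets of 2 genes (Wisp1 and Cyr61) were lower, beside 0.933% of all. Limma called none of the members or of all probe sets at an adjusted p under 0.05. At an unadjusted p under 0.05 there were 5 member probe sets and 4896 of all. The probe sets called were Wisp1 1448594_at, 3.56-fold lower in the RNP-IPs labelled uninduced than in total RNA (log2 fold -1.83, SE 0.28, adjusted p = 0.271), and Cyr61 1442340_x_at and 1457823_at (adjusted p = 0.156 and 0.160). The last 2 were near background in the precipitates, and with signals below log2 5 set to 5 they were at least 1.92-fold and 1.81-fold lower. Leaving out RNP-IP 2 labelled uninduced leaves 1 array of that label. The log2 folds were then -1.73 for Ctgf, -3.57 for Wisp1 1448593_at and -2.62 for Cyr61 1438133_a_at. Without RNP-IP 1 labelled uninduced the log2 fold of Nov 1426852_x_at was 1.61.

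Ctgf and Nov were not called here. The RNP-IPs labelled uninduced were 2.82-fold lower than total RNA for Ctgf (log2 fold -1.50, SE 0.39, adjusted p = 0.401) and 2.83-fold higher for Nov at 1426852_x_at (log2 fold 1.50, SE 0.30, adjusted p = 0.334). The arrays labelled uninduced and the total RNA array enter this comparison and the first. For Wisp2 the 2 precipitates labelled uninduced and total RNA were alike within the SE (log2 fold -0.13, SE 0.19), so that its lower signal was measured in the RNP-IPs labelled induced.

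The 3 groups were in full order, with both arrays labelled induced below both labelled uninduced and these below total RNA, for 5 of the 23 member probe sets (21.7%), beside 4.36% of all probe sets. These were Ctgf, Wisp1 1448594_at and 3 probe sets of Cyr61, of which 2 were near background in the precipitates. The opposite order held for 3 (13.0%), Nov with both probe sets and Lats2 1439441_x_at, beside 3.52% of all. Among probe sets with a mean of at least log2 5 the shares were 3 of 14 members against 10.1% of all for the falling order, and 3 of 14 against 5.65% for the rising one. Because probe sets of 1 gene share a transcript, these are counts of probes and not of independent genes.

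A different pattern ran across the labels. It concerns 2 arrays picked after the data were seen, so its shares are a description and not a test. For 6 of the 23 member probe sets (26.1%) RNP-IP 2 labelled induced and RNP-IP 1 labelled uninduced were the lowest arrays, beside 5.87% of all probe sets, and for members with a mean of at least log2 5 this was 6 of 14 (42.9%) beside 12.3%. They were both probe sets of Ankrd1, Amotl2, Tead1 1429556_at, Wisp1 1448593_at and Cyr61 1438133_a_at. The mean of the other 3 arrays exceeded that of these 2 by a log2 difference of 0.79 in Amotl2 to 2.85 in Ankrd1 1420991_at.

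The same 2 arrays were lowest at the control probe sets for the 5' ends of housekeeping transcripts, which read the part of an mRNA farthest from where labelling starts. The 5' control of Gapdh read 8.18 and 4.24 in the RNP-IPs labelled induced, against 3.65 and 7.81 with the uninduced label and 6.93 in total RNA. For beta-actin the signal at the 3' control exceeded that at the 5' control by 2.46 and 5.34 in the RNP-IPs labelled induced, against 6.70 and 3.59 with the uninduced label and 5.24 in total RNA. For Gapdh the excess was 3.715 and 5.471, against 6.05 and 4.293, with 5.395 in total RNA. By this difference total RNA lay close to RNP-IP 2 labelled induced for both genes. The same 2 arrays were also the lowest at the brightest probe sets of the reference genes Gapdh, Actb and Rplp0, which were not called (log2 folds of -0.57, -0.02 and -0.25). For Gapdh this probe set, at the 3' end, read 11.90 and 9.72 in the RNP-IPs labelled induced, against 9.70 and 12.11 with the uninduced label and 12.32 in total RNA. Rplp0 read 13.21 and 11.88 in the RNP-IPs labelled induced, against 11.50 and 13.55 with the uninduced label and 13.33 in total RNA. For the remaining measured reference genes, Hprt and Tbp, these 2 arrays were not the lowest. Hprt read 11.24 and 10.94 in the RNP-IPs labelled induced, against 10.39 and 10.42 with the uninduced label and 10.60 in total RNA. Tbp read 5.16 and 5.39, against 5.38 and 5.29, with 5.48 in total RNA. The part of the difference between these 2 arrays and the others in the results for the 6 probe sets was not tested.

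**Figure D4:**
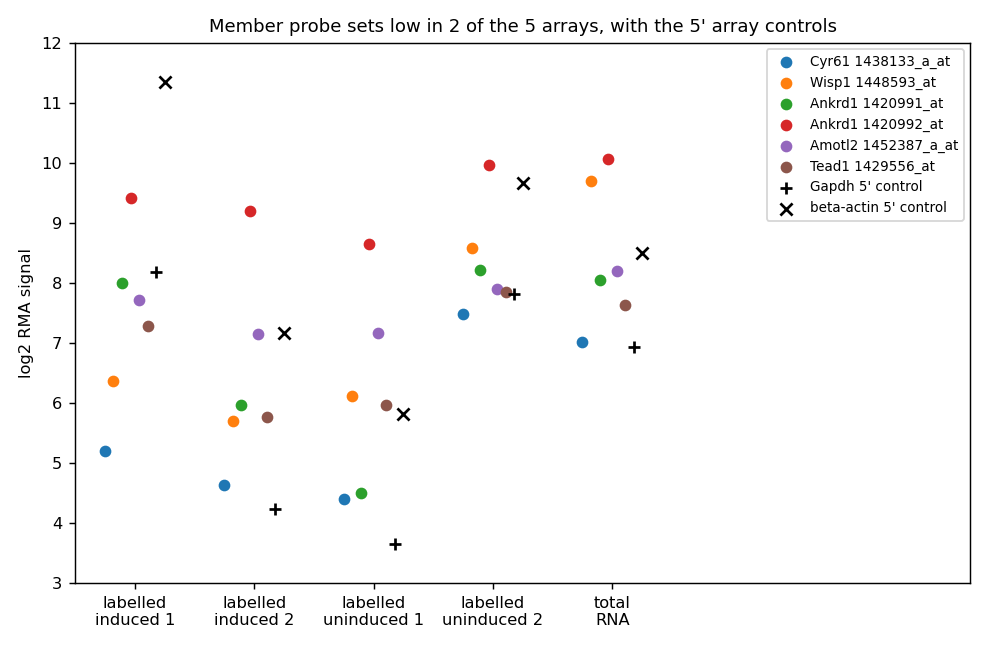
Log2 RMA signal (vertical axis) in each of the 5 arrays (horizontal axis) of the 6 member probe sets for which RNP-IP 2 labelled induced and RNP-IP 1 labelled uninduced were the lowest (dots), with the 5' control probe sets of Gapdh and beta-actin (crosses). The Gapdh control is at 4.24 and 3.65 in these 2 arrays and at 6.93 to 8.18 in the other 3.

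The members' calls were therefore repeated without these 2 arrays, a choice made after seeing the data, which leaves 1 RNP-IP of each label and total RNA, with the lone array labelled induced assumed to vary like the controls. Ctgf was then 9.39-fold lower (log2 fold -3.23, adjusted p = 0.489) and Cyr61 1416039_x_at 4.82-fold lower (log2 fold -2.27, adjusted p = 0.342). Cyr61 1438133_a_at and Wisp1 1448593_at were called lower as well, with log2 folds of -2.05 (adjusted p = 0.402) and -2.78 (adjusted p = 0.495). Nov 1426852_x_at kept a log2 fold of 2.40 and was no longer called (adjusted p = 0.630).

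The genes around the members were counted from lists for the pathway, with 1 probe set per gene. Over all 18194 genes 1.32% were called higher and 2.36% lower with the induced label, and the median log2 fold was 0.00. Of the 10 member genes, on their brightest probe sets, Nov was higher and Ctgf and Cyr61 were lower, and the median log2 fold was -0.47 with 7 of 10 below 0. All 10 of these probe sets had a mean of at least log2 5, and over the 8275 genes at this level the median was -0.13 with 57.9% below 0. Of these 8275 genes 2.62% were called higher and 5.12% lower. No gene of the lists for the Hippo pathway, for other YAP targets, for CCN receptors or for fibroblast markers was called higher.

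Of 31 measured genes of the Hippo pathway 1 was lower and 30 were not called, with a median log2 fold of -0.23. The gene that was lower was Wwc2, whose product scaffolds and activates LATS kinases, at 5.82 and 7.02 in the RNP-IPs labelled induced, against 8.57 and 8.02 with the uninduced label and 9.61 in total RNA (log2 fold -2.31, SE 0.65, adjusted p = 0.346). The next of kin of the members were not called. Wwtr1, which encodes TAZ, the paralogue of YAP, read 7.98 and 8.52 in the RNP-IPs labelled induced, against 8.92 and 9.11 with the uninduced label and 9.74 in total RNA (log2 fold -1.01, SE 0.33, adjusted p = 0.420). Lats1 had a log2 fold of -0.84 (adjusted p = 0.210), and Tead2 and Tead3 had log2 folds of 0.08 and 0.33.

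Of 27 measured genes among other targets of YAP 2 were lower and 25 were not called, with a median log2 fold of -0.18. They were Asap1, an Arf GTPase-activating protein of focal adhesions, at 4.80 and 6.20 in the RNP-IPs labelled induced, against 7.39 and 7.62 with the uninduced label and 8.96 in total RNA (log2 fold -2.49, SE 0.71, adjusted p = 0.351), and F3, which encodes tissue factor, the starter of coagulation. F3 read 8.04 and 8.36 in the RNP-IPs labelled induced, against 9.93 and 10.18 with the uninduced label and 9.35 in total RNA (log2 fold -1.62, SE 0.30, adjusted p = 0.207), and differed from Ctgf and Cyr61 in that total RNA was not its highest array. Of the 22 genes with a mean of at least log2 5, 18 (81.8%) had a log2 fold below 0, with a median of -0.68. The share was 78.6% for the Hippo pathway, 75.0% for the fibroblast markers, 72.7% for the CCN receptors and 80.0% (4 of 5) for the reference genes. A second probe set of Asap1, 1425572_a_at, had a log2 fold of 0.96 and was not called.

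Of 15 measured receptors and partners of CCN proteins 1 was lower and 14 were not called, with a median log2 fold of -0.10. Itgb5, the beta subunit of an integrin that binds Cyr61, read 7.12 and 8.35 in the RNP-IPs labelled induced, against 9.36 and 9.29 with the uninduced label and 10.78 in total RNA (log2 fold -2.08, SE 0.68, adjusted p = 0.417). Its alpha partner Itgav had a log2 fold of -0.59 and Itgb1 one of 1.57, neither of them called. Of 14 fibroblast markers Pdgfrb, a receptor for platelet-derived growth factor, was lower (log2 fold -1.59, SE 0.53, adjusted p = 0.426), and the median was -0.22. The second probe set of Pdgfrb, 1417148_at, had a log2 fold of -0.33 and was not called. Nor were the other probe sets of Itgb5, with log2 folds from -1.58 to -0.80, or of Wwc2, from -1.36 to -0.02. The calls of Wwc2, Asap1, F3, Itgb5 and Pdgfrb were each lost when either RNP-IP 1 labelled induced or RNP-IP 2 labelled uninduced was left out, those of Wwc2, F3, Itgb5 and Pdgfrb also without RNP-IP 1 labelled uninduced, and those of F3 and Pdgfrb under cyclic loess scaling. Without RNP-IP 1 labelled induced Pdgfrb had a log2 fold of -0.82, and its call was lost with total RNA left out as well (adjusted p = 0.608).

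**Figure D5:**
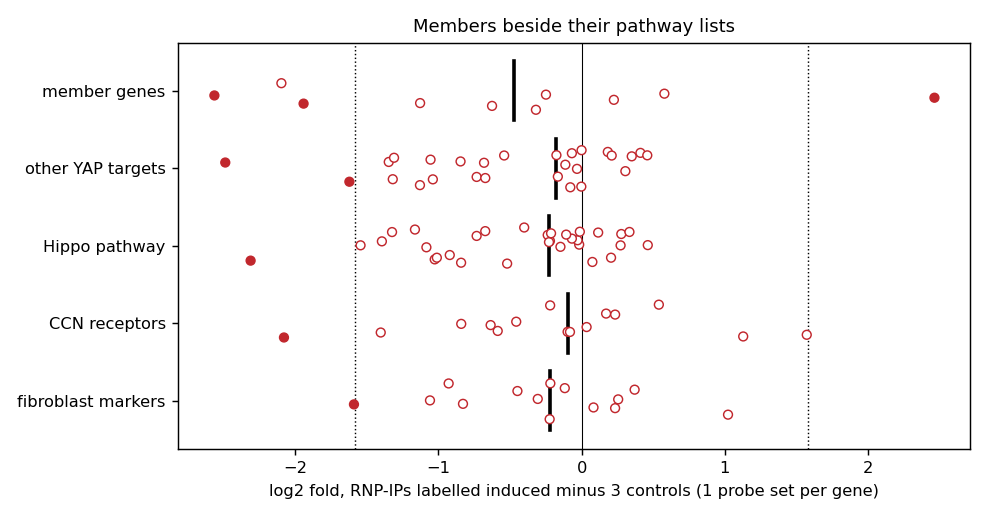
Log2 fold of the RNP-IPs labelled induced minus the 3 controls (horizontal axis) for 1 probe set per gene in the member genes and 4 lists (rows), with filled points for called genes, black bars for medians and dotted lines at a fold of 3. Nov is the only called gene to the right of 0 in these rows, and the median of the member genes is -0.47.

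Among 6400 genes with a mean log2 signal of at least 6, the profile over the 5 arrays, centred on each gene's mean, was nearest to that of Nov in Camk2n1, an inhibitor of a calmodulin-dependent kinase, with a root mean square difference of 0.14 on the log2 scale. Camk2n1 read 8.45 and 8.64 in the RNP-IPs labelled induced, against 6.44 and 6.60 with the uninduced label and 5.25 in total RNA. Nipa1, a magnesium transporter, and Hsdl2 followed at 0.19 and 0.31. The profile of Ctgf was nearest in Slc38a1, a glutamine transporter, at 0.18, then in Scarb1, a receptor for high-density lipoprotein, and Dvl1, a component of Wnt signalling, both at 0.19. Slc38a1 read 6.79 and 7.80 in the RNP-IPs labelled induced, against 8.98 and 9.31 with the uninduced label and 10.91 in total RNA. With 5 arrays in 3 groups, this likeness describes the order and spacing of the groups.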

How the data were processed

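Log2 signals of 45101 probe sets on 5 arrays were used as deposited. According to the methods, the authors labelled 50 ng of RNA per sample by a two-cycle protocol and normalized the arrays by RMA, a method that corrects background and quantile-normalizes, to log2 values. No RMA version is given in the sources used here, and no detection calls were used. Gene names came from the array's annotation at GEO, where 34958 probe sets have 1 gene, 932 several and 9211 none. Each gene with several probe sets stands by the one brightest on average.

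Comparisons were fitted over all probe sets in R 4.3.3 with the package limma, version 3.58.1 (lmFit, eBayes, Benjamini-Hochberg adjustment, 3 residual degrees of freedom for the 2 groups and 2 for the 3 groups). The fits were tested on simulated data. Calls required a fold of 3 or more together with an adjusted p under 0.5, the rule by which the study listed enriched mRNAs. Named were all members, Hnrnpd, called genes of each list up to 8, Gapdh, Actb and Rplp0, and the 3 nearest profiles of the most changed members. Wwtr1, Lats1, Tead2, Tead3, Itgav, Itgb1, Hprt and Tbp were added after their values were seen. The members, lists and rule were chosen with earlier results of these data known. The number of arrays limits the precision. In bulk RNA, fewer cells with an mRNA and less of it per cell cannot be told apart, and equal RNA masses were labelled, so signals are shares of each sample's RNA.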

Additional observations from a re-analysis of the deposited data

How the results depend on the processing

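Of the members' calls in the comparison with 3 controls, 3 higher and 2 lower, none remained at an adjusted p under 0.05, and without the 2 arrays low at the 5' Gapdh control there were 1 and 4. Leaving out 1 RNP-IP at a time gave 0 to 2 higher and 0 to 4 lower, and leaving out total RNA 3 and 2. With only the RNP-IPs labelled uninduced as controls, at 3 higher and 2 lower, the counts were 0 and 0 at an adjusted p under 0.05, and 1 to 2 and 1 to 4 with 1 RNP-IP left out (Cyr61 1438133_a_at and Wisp1 1448593_at were gained without RNP-IP 1 labelled uninduced). For the RNP-IPs labelled uninduced against total RNA, with 0 higher and 3 lower, they were 0 and 0 at an adjusted p under 0.05, and 0 to 1 and 3 to 6 with 1 RNP-IP left out. Median centring, cyclic loess and a trended robust prior kept the counts within 1.5 times. In the first comparison without RNP-IP 2 labelled uninduced, no member was called, and all probe sets had 0.823% higher and 0.849% lower. With all arrays these shares were 1.16% and 1.66%. Without RNP-IP 1 labelled uninduced, with 4 member probe sets lower, they were 0.965% and 1.57%. Against total RNA, leaving out RNP-IP 2 labelled uninduced raised the share of all probe sets called lower as well. These falls to 0 and the rise to 6 are thus not particular to the members.

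The replicate numbers do not pair the RNP-IPs, whose deviations correlated at -0.50 over all probe sets. With the replicate block the first comparison had 0 higher and 1 lower, beside 0.907% and 1.09% of all probe sets. The second then had 1 and 1, beside 0.634% and 0.816%. With crossed pairing, an alternative that had not been planned, the first had 3 and 2, beside 1.23% and 1.74%. By gene and over the alternatives with a test, 101 values kept their direction and side of the threshold, 9 lost the call and 4 gained it. The sign turned for Ankrd1 (log2 fold 0.0061 with total RNA left out) and for Tead1 (0.14 without RNP-IP 2 labelled induced, in a range of -1.39 to 0.14). Leaving out total RNA and taking the RNP-IPs labelled uninduced alone are the same fit, and the values counted above include it under both names. Wisp1 1448593_at was called (adjusted p = 0.318) where probe sets with a mean under log2 5 were left out before the fit. The cause of this and of the other changes was not tested. Signals near or under log2 5 give only bounds.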
